A study of Mus musculus with 12 samples.

Results

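DNA replication and S phase genes were followed in BW5147, an established mouse thymic lymphoma T cell line, after 8 h with a glucocorticoid, a cytokine or a chemokine. The set holds 41 genes of the replication machinery, chosen by symbol. A gene was matched where the platform annotation gives a probe set that symbol and no other, and 39 of the 41 were found among 12393 genes named in that way. Gins2 and Chaf1a were not matched. Where a gene had several probe sets, the one with the highest mean log2(signal + 16) over the 12 arrays stood for it. The samples were 6 groups of 2 Affymetrix arrays each: unstimulated cells, dexamethasone (Dex, a synthetic agonist of the glucocorticoid receptor) at 100 ng/ml, IL-9 at 100 U/ml, CCL1 at 100 U/ml, Dex with IL-9, and Dex with CCL1. Apart from these additions every group shared the same cells, medium and 8 h. All samples come from 1 cell line, and no label says that the arrays numbered 1 and 2 of a group came from separate cultures, so a p-value here measures array-to-array spread alone, and that spread may be technical. IL-9 is a cytokine with growth and survival activity on some T cell lines, and CCL1 is the chemokine that binds the receptor CCR8.

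A eukaryotic cell prepares its DNA for copying in G1, when the origin recognition complex (Orc1, Orc2, Orc6), Cdc6 and Cdt1 load the Mcm2 to Mcm7 ring on DNA. In S phase Cdc45 and the GINS complex (Gins1) join that ring to form the active helicase, DNA polymerases copy the strands while held by the Pcna clamp, and ribonucleotide reductase supplies the building blocks. Many of these genes are targets of E2F transcription factors, which act when a cell enters S phase. A growing lymphoma line is usually rich in such transcripts, and the question put to the arrays here was whether the cytokines or Dex altered them within 8 h.

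The promoters of Orc1, Pola1 and Mcm6 are shown because several comparisons below return to Orc1 and Pola1, and because Mcm6 held 3 E2F octamers, the most of any member. Each sequence is the 250 bases before the start in RefSeq's GRCm38.p6 annotation, written 5′ to 3′ on the gene's strand, with E2F octamers in capitals. Orc1 lies at chr4:108579204-108579453 (plus strand), Pola1 at chrX:93632156-93632405 (minus strand) and Mcm6 at chr1:128359706-128359955 (minus strand).
Orc1: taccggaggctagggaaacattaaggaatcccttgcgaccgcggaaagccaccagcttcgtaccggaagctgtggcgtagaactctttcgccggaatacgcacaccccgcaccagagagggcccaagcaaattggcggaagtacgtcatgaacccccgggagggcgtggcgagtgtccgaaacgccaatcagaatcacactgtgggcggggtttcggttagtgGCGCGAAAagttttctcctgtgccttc
Pola1: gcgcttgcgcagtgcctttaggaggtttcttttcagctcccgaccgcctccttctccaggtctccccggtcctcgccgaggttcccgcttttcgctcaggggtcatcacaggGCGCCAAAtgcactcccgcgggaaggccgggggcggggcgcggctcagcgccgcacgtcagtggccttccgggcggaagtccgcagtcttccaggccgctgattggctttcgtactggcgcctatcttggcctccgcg
Mcm6: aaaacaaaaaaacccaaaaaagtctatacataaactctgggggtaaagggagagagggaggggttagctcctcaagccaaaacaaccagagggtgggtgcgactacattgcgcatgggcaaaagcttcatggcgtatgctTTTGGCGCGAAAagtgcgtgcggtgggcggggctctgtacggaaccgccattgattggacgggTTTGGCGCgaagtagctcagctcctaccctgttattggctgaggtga
The octamers searched were TTTCCCGC, TTTCGCGC, TTTGCCGC and TTTGGCGC on both strands, in windows of 300 bases that also held the 50 bases after the start. The capitals begin 27 bases before the start in Orc1 and 138 bases before it in Pola1, both as the reverse complement. In Mcm6 they begin 110, 106 and 47 bases before the start, and the first 2 matches overlap in 1 run of capitals. RefSeq windows were found for 35 of the 41 genes, 44 windows in all, and 14 of these 44 (31.8%) held an octamer, against 744 of 32851 windows of all genes (2.26%). The other genes with one were Mcm3, Mcm5, Mcm7, Cdc6, Cdt1, Dnmt1, Lig1, Pold1, Pole2, Rfc3 and Uhrf1. CCAAT, on both strands, was in 27 of the 44 windows (61.4%), against 37.4% of all windows. These are matches of letters, not measured binding sites.

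Before the comparisons, several facts about the arrays bear on every result. The values are linear MAS5 signals, scaled to a common level: the mean signal of an array without the top and bottom 2% lay between 99.1 and 99.4. T lymphoid markers were present, with 9 of 10 matched and a summed signal of 5142 to 6945. Ptprc, Thy1, Lat and Cd3g led, each over 500 on every array. Cd2, however, stood at 0.17 to 14.4, below the filter, and Cd28 at 16.9 to 65.8. The summed markers of B cells (3 of 4, 4.30 to 18.6), myeloid cells (4 of 4, 14.0 to 34.1), fibroblasts (4 of 4, 1.95 to 28.7) and erythroid cells (2 of 3, 6.32 to 18.2) were near background. The glucocorticoid targets did not follow the label in 1 set of arrays: the summed signal of 8 such genes was 1521 to 1914 in the 3 arrays labelled without Dex and numbered 1, 688 to 753 in the 3 without Dex and numbered 2, and 1469 to 1930 in the 6 Dex arrays. The Dex array numbered 2 stood apart, with the lowest value of 17% and the highest of 18.6% of the 13575 probe sets kept for testing. The CCL1 array numbered 2 was deposited under another array platform than the other 11, in a table of its own. Where its values stand apart below, sample and platform cannot be told apart. It was left out of the fits, so that CCL1 without Dex rests on 1 array there and its spread is taken from the other groups. Dex comparisons are therefore given by array number as well as pooled, and where leaving out the Dex array numbered 2 turns a named member or moves it by over 1.5 times, its value without that array follows.

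The replication genes gave strong signals that varied little between arrays. All 39 passed the filter on low values, their median signals ran from 50.9 (Tyms) to 4209 (Pcna), and 38 of 39 had a median over 100. Signals of different probe sets do not rank genes by RNA level, since each probe set binds with its own strength. The SD of log2(signal + 16) over the 12 arrays had a median of 0.142 for the 39 genes and 0.210 for all kept probe sets, and 33 of the 39 lay under the latter. Their mean log2 signal was also higher (median 8.44 against 6.46), so the sets differ in level as well as in spread. In 3 members the highest signal was over 2-fold the lowest: Pola1 (6.30-fold), Pole2 (2.07-fold) and Orc2 (2.01-fold). Of all kept probe sets 6470 (47.7%) were over 2-fold. The 2 arrays of a group differed in a member by a median of 0.11 (IL-9) to 0.21 (Dex+CCL1) on the log2 scale. In bulk RNA, fewer cells in S phase and less of these RNAs per cell cannot be told apart. Where arrays are said below to lie above or below others, the order was picked after the values were seen. The share of all probe sets with the same order was not counted, so such orders are not read as group effects.

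**Figure D1:**
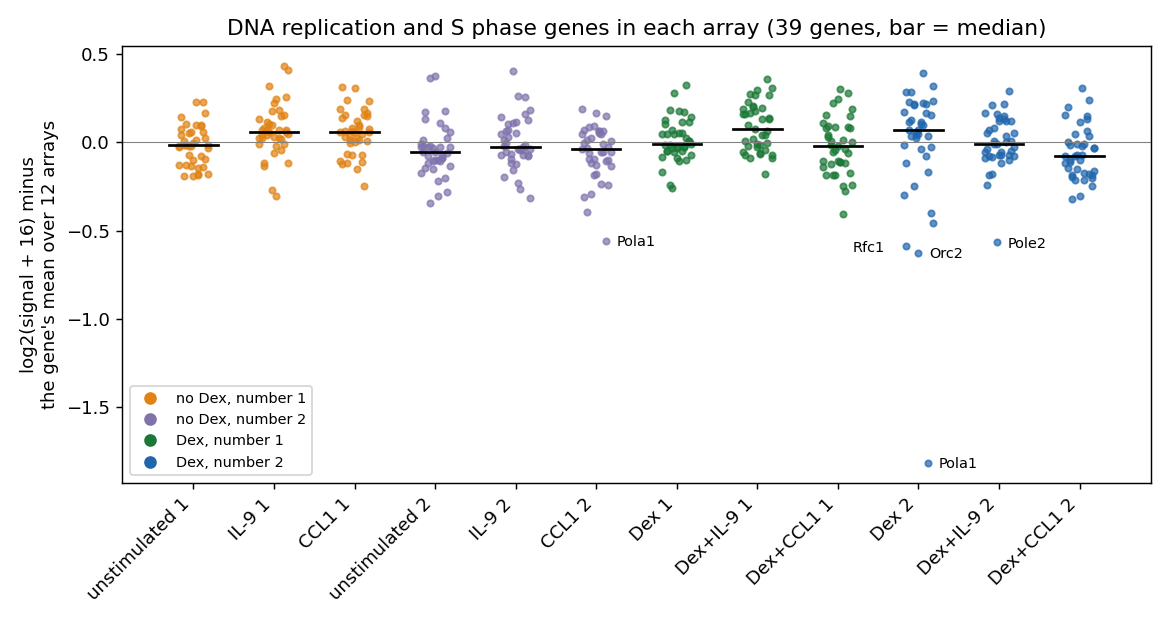
Each point is 1 of 39 replication genes on 1 array, as log2(signal + 16) minus the gene's mean over the 12 arrays (y axis), with arrays along the x axis coloured by Dex label and replicate number, and the bar at the array's median. The medians lie between -0.078 and 0.078, and Pola1 on the Dex array numbered 2 is the 1 gene more than 1 log2 unit below every other array.

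Licensing and helicase genes, 14 of 15 measured, had SDs from 0.094 to 0.284. Mcm7, a subunit of the helicase ring, had the strongest signal of this role, given here and below for array 1 and then array 2 of each group: 2018 and 1780.1 in unstimulated cells, 1919.7 and 1801 with IL-9, 1754 and 1886 with CCL1, 1857 and 2206.5 with Dex, 1835 and 1895 with Dex+IL-9, and 1743 and 2105 with Dex+CCL1. All 12 values lay within 1.27-fold, and no group stood clear of the others. Mcm6, another ring subunit and the gene with 3 octamers above, read 1096 and 1197 in unstimulated cells, 1155 and 1086 with IL-9, 1139 and 826 with CCL1, 1126 and 1184 with Dex, 1077 and 1144 with Dex+IL-9, and 1112 and 1008 with Dex+CCL1. Its CCL1 array numbered 2 was the lowest, and the other 11 lay between 1008 and 1197. Orc2, a subunit of the origin recognition complex, had the widest spread of this group: 203 and 216 in unstimulated cells, 275 and 213 with IL-9, 293 and 263 with CCL1, 228 and 146 with Dex, 290.3 and 258 with Dex+IL-9, and 279 and 186 with Dex+CCL1. The Dex array numbered 2 was its lowest value, and both Dex arrays lay below both Dex+IL-9 arrays. Orc1, the large ATPase subunit of that complex, read 118 and 122 in unstimulated cells, 140.1 and 156 with IL-9, 162 and 129.8 with CCL1, 128 and 94.1 with Dex, 171 and 133 with Dex+IL-9, and 156 and 132 with Dex+CCL1. Both unstimulated arrays lay below all IL-9 and CCL1 arrays, and the Dex array numbered 2 was again the lowest. Cdc45, the helicase cofactor that marks an active fork, read 212 and 217 in unstimulated cells, 239 and 249 with IL-9, 256 and 222 with CCL1, 247 and 168 with Dex, 276 and 219 with Dex+IL-9, and 240.4 and 195 with Dex+CCL1. It too was lowest on the Dex array numbered 2, and both unstimulated arrays again lay below all IL-9 and CCL1 arrays. Mcm2, Mcm3, Mcm4, Mcm5, Mcm10, Cdc6, Cdt1, Gins1 and Orc6 each stayed within 1.53-fold between lowest and highest array.

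Among the clamp and its loader, 6 of 6 measured, Pcna, the ring that holds polymerases on DNA, had the highest signals of all: 4620.2 and 3499.6 in unstimulated cells, 5123 and 4213 with IL-9, 3885.5 and 4513 with CCL1, 4492 and 4205 with Dex, 4137 and 4169 with Dex+IL-9, and 4008 and 5359.8 with Dex+CCL1. The unstimulated array numbered 2 was lowest and the Dex+CCL1 array numbered 2 highest, so that its extremes fell on replicates of 2 different groups. Rfc4, a subunit of the loader that opens the clamp, had the smallest SD of all 39 genes, 0.074, with signals from 596 to 698. Rfc1, the large subunit of the loader, had the widest spread here: 318 and 289 in unstimulated cells, 295 and 248 with IL-9, 359.5 and 228 with CCL1, 309 and 185 with Dex, 321 and 279 with Dex+IL-9, and 321 and 331 with Dex+CCL1. The Dex array numbered 2 was lowest, followed by the CCL1 array numbered 2. Rfc2, Rfc3 and Rfc5 had SDs of 0.209, 0.136 and 0.136.

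Polymerase and primase genes, 8 of 8 measured, included the most variable member. Pola1, the catalytic subunit of the polymerase that starts each strand, read 208 and 186 in unstimulated cells, 242 and 197 with IL-9, 202 and 114 with CCL1, 223 and 38.4 with Dex, 229 and 217 with Dex+IL-9, and 216 and 179.8 with Dex+CCL1. The Dex array numbered 2 was far below every other, and the CCL1 array numbered 2 was next lowest. Prim1, the catalytic subunit of the primase in the same complex, did not share that low value: 395 and 356 in unstimulated cells, 411 and 383 with IL-9, 462 and 392 with CCL1, 417 and 399 with Dex, 453 and 378 with Dex+IL-9, and 437 and 370.1 with Dex+CCL1. Pold2, an accessory subunit of the lagging strand polymerase, was among the steadiest, at 300.3 to 360.4 over the 12 arrays. Pole, the catalytic subunit of the leading strand polymerase, read 139 to 151 on the 3 arrays without Dex numbered 1 and 98.8 to 116 on the 3 numbered 2, without overlap. Pole2, its second subunit, read 219 and 194 in unstimulated cells, 171 and 283 with IL-9, 199 and 224 with CCL1, 258 and 219 with Dex, 239.5 and 137 with Dex+IL-9, and 224 and 187 with Dex+CCL1, and its low and high extremes were the number 2 arrays of Dex+IL-9 and IL-9. Pola2, Pold1 and Prim2 had SDs of 0.155, 0.210 and 0.146.

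The single strand binding and strand joining genes, 4 of 4 measured, were led by Rpa1, the large subunit of replication protein A, which coats unwound DNA: 1937 and 1857 in unstimulated cells, 1912 and 1902 with IL-9, 1730.3 and 1878 with CCL1, 2053 and 2299 with Dex, 1787 and 1954 with Dex+IL-9, and 1654.5 and 1703 with Dex+CCL1. Both Dex+CCL1 arrays lay below both Dex arrays, and the Dex array numbered 2 was highest. Rpa2, the middle subunit of the same complex, read 281 and 298 in unstimulated cells, 339 and 314 with IL-9, 325 and 333 with CCL1, 335 and 379 with Dex, 371 and 359.8 with Dex+IL-9, and 239 and 319.7 with Dex+CCL1. Both Dex+CCL1 arrays again lay below both Dex arrays. Fen1, the nuclease that trims Okazaki fragments, read 848 and 841 in unstimulated cells, 869 and 879 with IL-9, 925 and 939 with CCL1, 1009.8 and 1005 with Dex, 789 and 975 with Dex+IL-9, and 738 and 982 with Dex+CCL1. Both Dex arrays lay above the other 10. The second probe set of Fen1 did not share that order. It read 399 and 457 with Dex, against 432 on the CCL1 array numbered 1 and 407 on the IL-9 array numbered 1. Lig1, the ligase that seals the fragments, ranged from 407 to 532.

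Nucleotide supply, 4 of 4 measured, was led by Rrm2, the small subunit of ribonucleotide reductase and the one most tied to S phase: 2518 and 2099.7 in unstimulated cells, 2695 and 2885 with IL-9, 2032 and 2676 with CCL1, 2249 and 2151 with Dex, 2408 and 2301.5 with Dex+IL-9, and 2313 and 2855 with Dex+CCL1. Both IL-9 arrays lay above both unstimulated arrays, and the lowest of the 12 values was a CCL1 array. Rrm1, the large subunit, read 842 and 849 in unstimulated cells, 969 and 941 with IL-9, 1089 and 862 with CCL1, 1048 and 943 with Dex, 1116 and 812 with Dex+IL-9, and 925 and 735 with Dex+CCL1. Tyms, thymidylate synthase, had the weakest probe set: 48.9 and 71.9 in unstimulated cells, 69.0 and 49.1 with IL-9, 54.0 and 39.7 with CCL1, 41.1 and 41.6 with Dex, 62.7 and 52.7 with Dex+IL-9, and 63.6 and 42.8 with Dex+CCL1. Both Dex arrays lay below both unstimulated arrays. Tk1, thymidine kinase, ranged from 337 to 430 (SD 0.112).

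Of the chromatin and methylation genes, 3 of 4 were measured. Dnmt1, the enzyme that copies DNA methylation to the new strand, ranged from 398 to 528, and Chaf1b, a subunit of the histone chaperone that packs new DNA, from 222 to 268. Uhrf1, which brings Dnmt1 to replicated DNA, had the highest spread of these: 517 and 678 in unstimulated cells, 497 and 563 with IL-9, 519 and 456.5 with CCL1, 508 and 544 with Dex, 515 and 494 with Dex+IL-9, and 482 and 484 with Dex+CCL1. The unstimulated array numbered 2 was the highest and the other 11 arrays lay between 457 and 563.

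**Figure D2:**
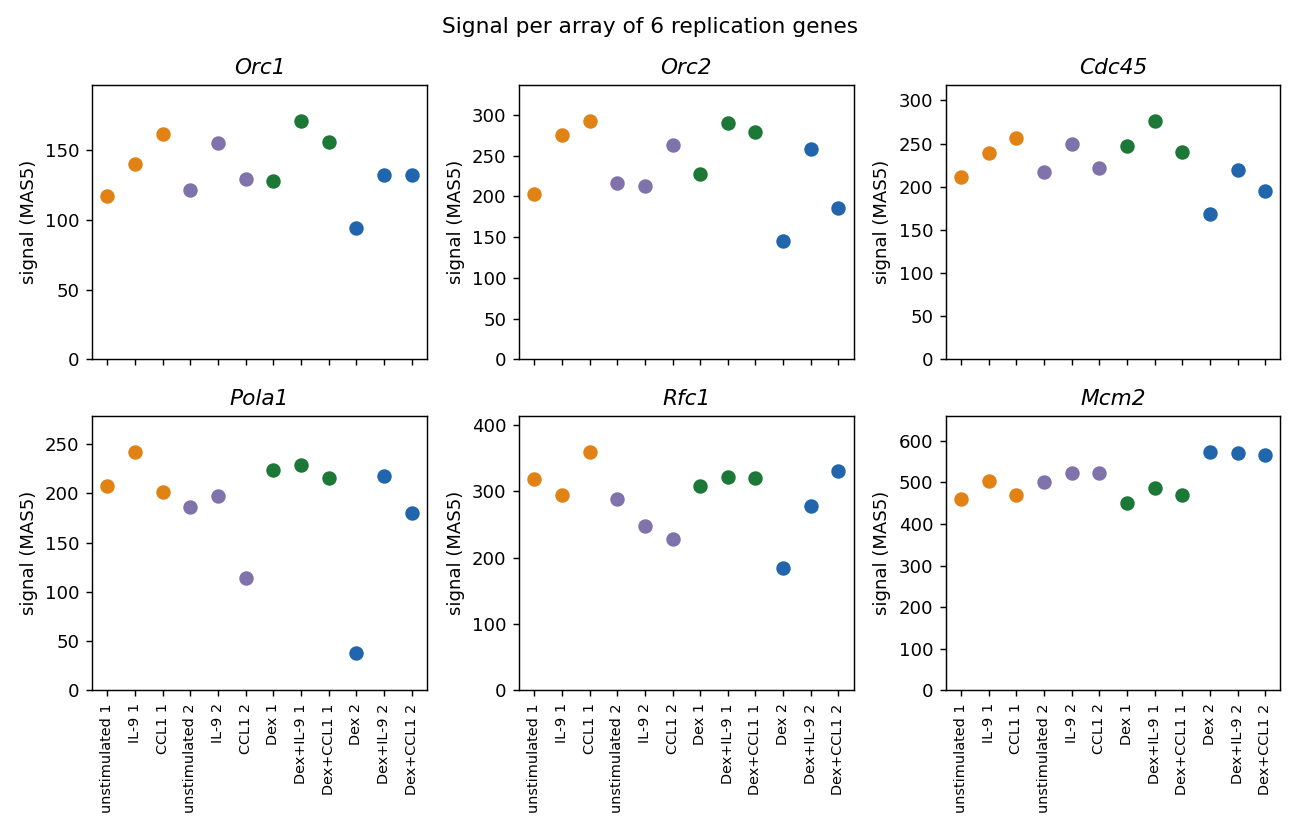
Each panel shows the MAS5 signal (y axis, from 0) of 1 gene on each of the 12 arrays (x axis), coloured by Dex label and replicate number: orange and purple are arrays without Dex numbered 1 and 2, green and blue are Dex arrays numbered 1 and 2. The Dex array numbered 2 is lowest for Orc1, Orc2, Cdc45, Pola1 and Rfc1 and highest for Mcm2.

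IL-9 was compared with no cytokine, without Dex, with Dex and averaged over both. Not 1 of the 39 genes was called in any of the 3 (limma, adjusted p under 0.05 by the Benjamini-Hochberg method across 13575 probe sets). The largest positive differences, averaged over both, were Pola1 at 0.60 ± 0.34, Orc2 at 0.37 ± 0.17, Orc1 at 0.34 ± 0.13 and Cdc45 at 0.21 ± 0.14, as log2 differences ± SE. Orc1 came closest to the threshold, with limma's adjusted p at 0.518 and a 95% interval of 0.044 to 0.63. The largest negative ones were Prim2 at -0.16 ± 0.13, Pole2 at -0.14 ± 0.19, Pold1 at -0.12 ± 0.15 and Dnmt1 at -0.11 ± 0.11. Of all kept probe sets 0.0958% were called in this comparison. Over the members 23 differences were positive and 16 negative, with a median of 0.056 against -0.012 over all probe sets, and 2 had an unadjusted p under 0.05 where 8.57% of all probe sets did. For 38 of the 39 the 95% interval lay within 1 log2 unit of no difference, as it did for 98% of all probe sets. Pola1 was the exception.

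Without Dex alone, IL-9 gave 27 positive and 12 negative member differences (median 0.075 against -0.019), none with an unadjusted p under 0.05, where 0.0221% of all probe sets were called. Rrm2 (0.28 ± 0.16), Orc1 (0.27 ± 0.19), Pcna (0.21) and Orc2 (0.19) were highest, and Uhrf1 (-0.16), Rfc1 (-0.16), Prim2 (-0.13) and Dnmt1 (-0.10) lowest. Other probe sets gave 0.51 and 0.29 for Rrm2 and 0.097 and 0.0053 for Orc2. They gave 0.092 for Uhrf1, -0.093 and -0.14 for Rfc1, -0.45 for Prim2 and 0.027 for Dnmt1. On top of Dex the counts were 21 and 18 (median 0.022 against -0.021), with 0.0221% of all probe sets called there too. Pola1 led with 1.07 ± 0.48, ahead of Orc2 (0.54 ± 0.23), Orc1 (0.41 ± 0.19) and Tyms (0.36), and limma's lowest adjusted p over the members was 0.838. Pole2 (-0.36), Pold1 (-0.31), Rpa1 (-0.22) and Fen1 (-0.20) were lowest. Without the Dex array numbered 2, IL-9 with Dex gave -0.0028 for Pola1, 0.25 for Orc2, 0.21 for Orc1 and -0.13 for Rpa1. The IL-9 average was then 0.07 for Pola1, 0.22 for Orc2, 0.24 for Orc1, 0.085 for Cdc45, -0.075 for Pold1 and -0.052 for Dnmt1. The second probe set of Pold1 gave 0.015 with Dex and 0.12 averaged. The IL-9 by Dex interaction, the difference between the effects with and without Dex, was called for no member and for 0% of probe sets, with Pola1 (0.92 ± 0.67), Rfc1 (0.46), Tyms (0.38) and Orc2 (0.35) highest and Pole2 (-0.45 ± 0.37), Pold1 (-0.39), Pcna (-0.27) and Fen1 (-0.25) lowest. Intervals were wider there, and 33 of 39 lay within 1 log2 unit, against 70.1% of all probe sets. That interaction without the Dex array numbered 2 was -0.14 for Pola1, 0.11 for Rfc1 and 0.053 for Orc2.

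CCL1 was compared in the same 3 ways, and again not 1 of the 39 genes was called. Averaged over both Dex conditions, Pola1 (0.47 ± 0.38), Orc2 (0.38 ± 0.18), Orc1 (0.37 ± 0.15) and Rfc1 (0.33 ± 0.17) were the most positive, and limma's adjusted p for Orc1 was 0.86. Rpa1 (-0.25 ± 0.11), Rfc2 (-0.17), Rfc5 (-0.16) and Uhrf1 (-0.15) were the most negative. The members split into 20 positive and 19 negative (median 0.014 against -0.017), and 0.00737% of all probe sets were called. For 38 of 39 the 95% interval lay within 1 log2 unit, against 97.3% of all probe sets. The comparisons of IL-9 and CCL1 use the same cytokine-free arrays, so that a low cytokine-free array moves both.

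Without Dex, where CCL1 rests on 1 array, Orc2 (0.45 ± 0.29), Orc1 (0.39 ± 0.23), Rrm1 (0.36) and Prim1 (0.29) were highest. Uhrf1 (-0.19), Rrm2 (-0.18), Mcm10 (-0.16) and Rpa1 (-0.13) were lowest. Other probe sets gave 0.13 and 0.08 for Orc2, 0.36 for Rrm1 and 0.26 for Prim1. They gave 0.0065 for Uhrf1, 0.016 and -0.13 for Rrm2, and -0.32 for Rpa1. Mcm3 stood at 0.0665, and its other probe sets at 0.33, 0.42, 0.44 and -0.36, the last with signals of 5.97 to 26.1. No probe set at all was called by limma there (0%), and no member but 3.29% of all probe sets had an unadjusted p under 0.05. With Dex, where 0.00737% of probe sets were called, 14 members were positive and 25 negative (median -0.077 against -0.0041). Pola1 (0.90 ± 0.48), Rfc1 (0.42 ± 0.21), Orc1 (0.34) and Orc2 (0.30) were highest. Rfc2 (-0.47 ± 0.18), Rpa1 (-0.37 ± 0.14), Pold1 (-0.37 ± 0.22) and Rpa2 (-0.35 ± 0.16) were lowest, and limma's lowest adjusted p over the members was 0.738. The other probe sets gave -0.35 for Rpa1, -0.50 for Rpa2, 0.11 for Pold1, 0.65 and 0.33 for Orc2, and 0.26 and -0.074 for Rfc1. Rpa3, the small subunit of the same complex, read 564 and 527 with Dex and 522 and 496 with Dex+CCL1. Without the Dex array numbered 2, CCL1 with Dex gave -0.17 for Pola1, 0.075 for Rfc1, 0.15 for Orc1 and 7.0e-04 for Orc2, while Rfc2, Rpa1 and Rpa2 stood at -0.32, -0.29 and -0.26. Averaged over Dex conditions, CCL1 then gave -0.067 for Pola1, 0.15 for Rfc1, 0.27 for Orc1, 0.23 for Orc2, -0.10 for Rfc2 and -0.084 for Rfc5. In the CCL1 by Dex interaction, called for no member and 0% of probe sets, Rrm1 (-0.62 ± 0.28), Rfc2 (-0.58), Rpa2 (-0.51) and Pold1 (-0.47) were lowest and Pola1 (0.87), Rrm2 (0.40), Tyms (0.36) and Rfc1 (0.19) highest. The second probe set gave -0.53 for Rrm1, -0.60 for Rpa2 and -0.0045 for Pold1. Leaving out the Dex array numbered 2 gave -0.20 for Pola1 and -0.16 for Rfc1.

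**Figure D3:**
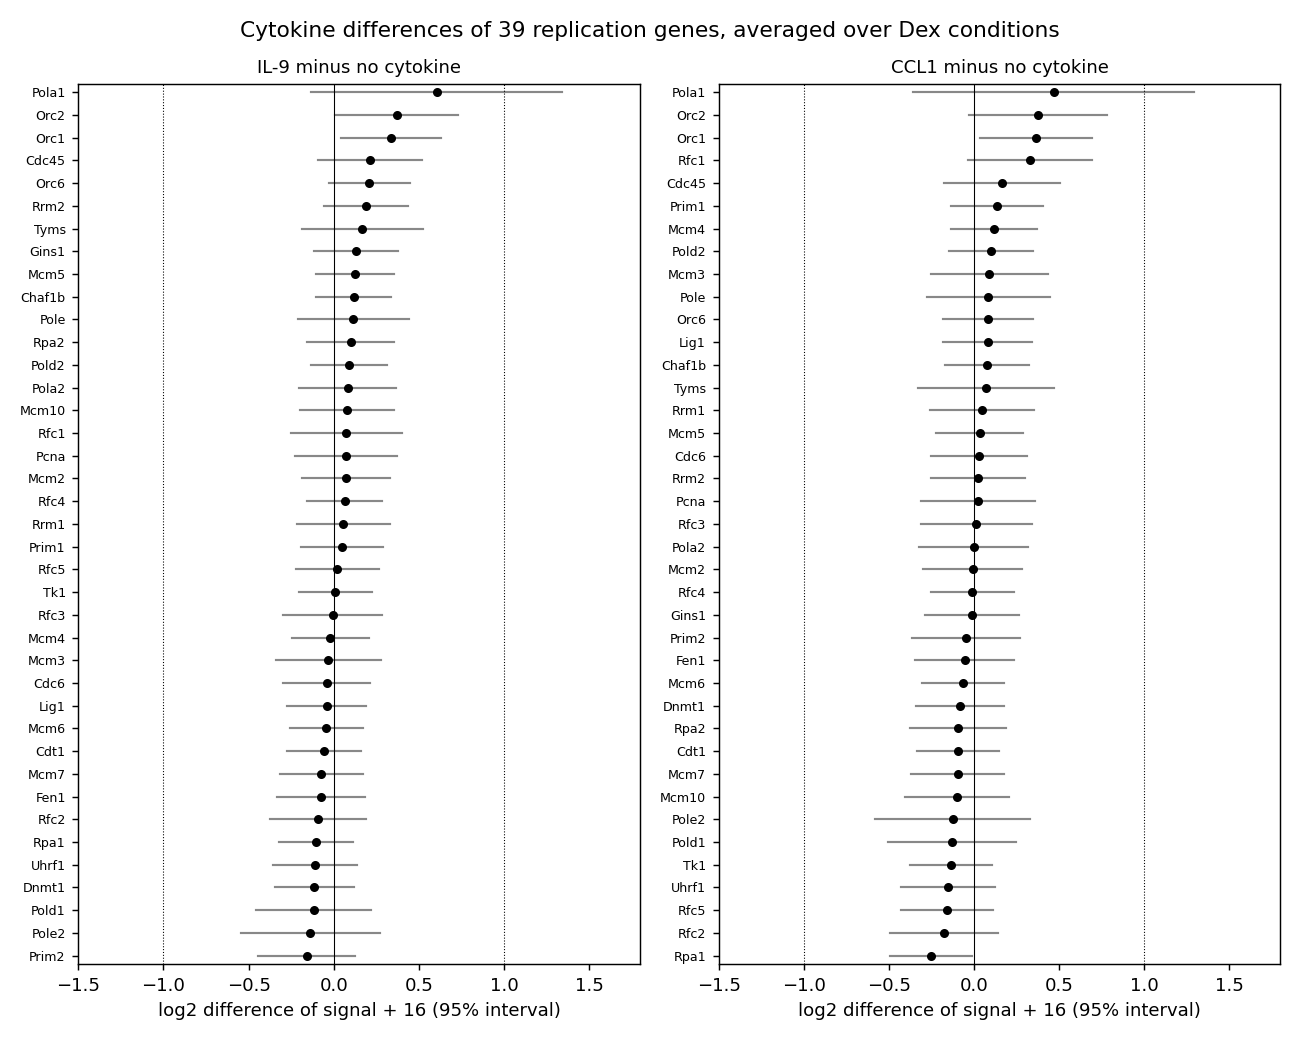
Log2 difference of signal + 16 (x axis) for each of 39 replication genes (y axis), IL-9 minus no cytokine on the left and CCL1 minus no cytokine on the right, averaged over Dex conditions. Points are limma estimates, grey lines 95% intervals, and dotted lines mark 1 log2 unit. Most intervals cross 0, and Pola1 has the widest in both panels.

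IL-9 set directly against CCL1, averaged over Dex conditions, called no member while 0.236% of all probe sets were called. Rpa2 (0.19 ± 0.13), Rfc5 (0.18), Mcm10 (0.18) and Rrm2 (0.16) were higher with IL-9, and Rfc1 (-0.25 ± 0.17), Mcm4 (-0.14), Mcm3 (-0.12) and Lig1 (-0.12) higher with CCL1. All 39 intervals lay within 1 log2 unit, against 97.4% of all probe sets. Orc1 and Orc2 differed by -0.029 and -0.0069 between the 2 agents, with 95% intervals of -0.36 to 0.30 and -0.41 to 0.40.

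A second fit, chosen after the number effect had been seen, gave each Dex label and number its own mean. It called 0.818% of all probe sets for IL-9 and 0.324% for CCL1, and no member for either. Orc1 came nearest, at 0.34 ± 0.10 for IL-9 and 0.36 ± 0.11 for CCL1, with limma's adjusted p at 0.153 and 0.212. Orc2 followed at 0.37 ± 0.12 and 0.30 ± 0.14. The Dex array numbered 2, lowest for both genes, is a cytokine-free array here, and this fit is not given without it. In the main fit without that array, the IL-9 and CCL1 averages were 0.24 and 0.27 for Orc1 and 0.22 and 0.23 for Orc2. The other probe sets of Orc2 gave 0.26 and 0.15 for IL-9 averaged over Dex, and Orc1 has 1 probe set.

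Dex, averaged over the cytokine conditions, called no member and 0% of probe sets. Pola1 (-0.30 ± 0.30), Tyms (-0.15 ± 0.14), Orc6 (-0.14) and Orc2 (-0.12) were lowest, and Pola2 (0.11), Mcm2 (0.079), Mcm7 (0.075) and Rpa2 (0.072) highest. The members had 20 positive and 19 negative differences with a median of 0.0036. All 39 intervals lay within 1 log2 unit, against 99.7% of all probe sets. Dex averaged without the Dex array numbered 2 gave 0.055 for Pola1, -0.02 for Orc2, 0.067 for Pola2, 0.023 for Mcm2, 0.034 for Mcm7 and 0.044 for Rpa2. That average pools arrays numbered 1, in which no glucocorticoid target was called between Dex labels, with arrays numbered 2, in which 5 were.

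In the arrays numbered 2 the 5 glucocorticoid targets that passed the filter were higher with Dex, all 5 called by limma: Tsc22d3, the leucine zipper protein GILZ, by 1.79 ± 0.14, Dusp1 by 1.34 ± 0.13, Per1 by 1.07 ± 0.20, Fkbp5 by 1.03 ± 0.14 and Ddit4 by 0.88 ± 0.15. In the same fit, which called 0.597% of all probe sets, not 1 replication gene was called. Pola2 (0.39 ± 0.13), Pold1 (0.30 ± 0.17), Rfc2 (0.27) and Rpa2 (0.27) were highest. Pola1 (-0.68 ± 0.39), Pole2 (-0.37 ± 0.20), Tyms (-0.31) and Uhrf1 (-0.26 ± 0.11) were lowest. The lowest adjusted p from limma was that of Pola2, 0.334. Over the members 23 were positive and 16 negative, and 2 had an unadjusted p under 0.05 (against 10.5% of all probe sets). Of the intervals 38 of 39 lay within 1 log2 unit, against 94% of all probe sets. Without the Dex array numbered 2 Pola1 stood at 0.076, Pola2 at 0.31, Pold1 at 0.19 and Rfc2 at 0.15. The second probe set of Pold1 gave 0.012.

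In the arrays numbered 1 the 5 glucocorticoid targets differed by -0.25 to 0.22 between Dex labels, none called. No member was called either (0% of probe sets). Pole2 (0.28 ± 0.17), Rfc3 (0.19), Mcm3 (0.14) and Orc1 (0.11) were highest and Pold1 (-0.21 ± 0.15), Mcm10 (-0.13), Pcna (-0.10) and Prim2 (-0.094) lowest. The second probe set gave 0.11 for Rfc3, -0.11 for Pold1, 0.12 for Prim2 and 0.29 for Mcm10 (signal 5.67 to 22.7). The other probe sets of Mcm3 gave 0.019, 0.19, 0.046 and -0.18. The difference of the Dex effect between numbers was called for no member and for 0.206% of probe sets. Pold1 (0.51 ± 0.23), Pola2 (0.43 ± 0.18), Pcna (0.35) and Prim2 (0.35) were highest and Pola1 (-0.72), Pole2 (-0.65 ± 0.26), Rfc3 (-0.40) and Orc1 (-0.37) lowest, with limma's lowest adjusted p at 0.467. Without the Dex array numbered 2 that of Pola1 was 0.04, and the second probe set of Pold1 gave 0.13.

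The array numbers were also compared within each Dex label. Without Dex, 0.796% of all probe sets and no member were called, while all 5 glucocorticoid targets were lower in number 2 and 4 of them called (Per1 had a limma adjusted p of 0.058). Pole (-0.40 ± 0.13), Pold1 (-0.38 ± 0.17), Prim2 (-0.36 ± 0.13) and Pola2 (-0.31 ± 0.13) had the most negative values, and limma's adjusted p for Pole was 0.309. Uhrf1 (0.25 ± 0.11), Pole2 (0.24), Rfc3 (0.23) and Mcm3 (0.22) had the most positive. Members numbered 28 below 0 and 11 above it (median -0.086 against 0.020), and 5 had an unadjusted p under 0.05 where 9.17% of all probe sets did. The second probe set gave -0.14 for Prim2, -0.055 for Pold1 and -0.16 for Pola2 (signal under 13 on every array). It gave 0.17 for Uhrf1 and 0.037 for Rfc3. The other probe sets of Mcm3 gave -0.064, 0.15, -0.022 and -0.26, the last with signals of 5.97 to 26.1.

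With Dex, 0.0221% of all probe sets and no member were called. Cdc45 (-0.37 ± 0.11), Orc2 (-0.44 ± 0.14), Pole2 (-0.40 ± 0.17) and Pola1 (-0.82 ± 0.34) were lower in number 2, and limma's adjusted p for Cdc45 was 0.154. Mcm2 (0.27 ± 0.093), Fen1 (0.23), Mcm7 (0.19) and Rpa2 (0.18) were higher. Other probe sets gave -0.015 and -0.21 for Orc2, 0.13 for Fen1, 0.096, -0.097 and 0.11 for Mcm7, and -0.083 for Rpa2. Mcm2 read 461 and 502 in unstimulated cells, 503 and 523 with IL-9, 469.7 and 523 with CCL1, 449 and 573 with Dex, 486 and 569 with Dex+IL-9, and 468 and 564 with Dex+CCL1. Its 3 Dex arrays numbered 2 lay above all 9 other arrays, but its second probe set differed by -0.0085, and limma's adjusted p was 0.196. Without the Dex array numbered 2, Cdc45 was at -0.32, Orc2 at -0.34 and Pola1 at -0.17. Of the members 7 had an unadjusted p under 0.05, against 15.8% of all probe sets.

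**Figure D4:**
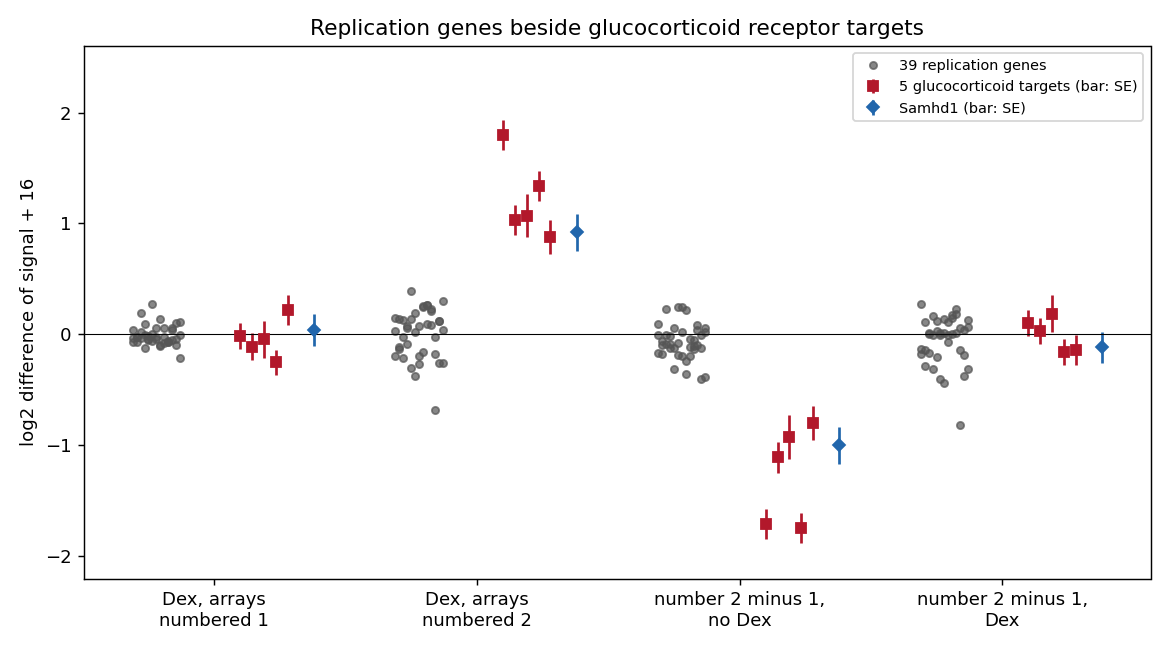
Log2 difference of signal + 16 (y axis) in 4 comparisons (x axis): Dex minus no Dex within arrays numbered 1 and numbered 2, and number 2 minus number 1 without and with Dex. Grey points are the 39 replication genes, red squares 5 glucocorticoid receptor targets and blue diamonds Samhd1, with bars of 1 standard error. The targets lie near 0 in the first and last comparisons and from 0.88 to 1.79 above 0 in the second, while the replication genes lie on both sides of 0 in all 4, with Pola1 lowest at -0.68 in the second and -0.82 in the last.

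The Dex array numbered 2 held the lowest value of 7 members (Cdc45, Orc1, Orc2, Orc6, Rfc1, Rfc4 and Pola1) and the highest of 11 (Mcm2, Mcm7, Cdt1, Rfc2, Rfc5, Pola2, Rpa1, Rpa2, Lig1, Tk1 and Dnmt1). Those shares, 17.9% and 28.2% of members, stood beside 17% and 18.6% of all kept probe sets. Pola1 was lowest there by more than 1 log2 unit, as were 100 of the kept probe sets (0.737%). All 3 probe sets of Orc2 and of Rfc1 were lowest on that array: the other 2 of Orc2 read 78.2 and 67.2, and the other 2 of Rfc1 read 186 and 121. Pola1, Orc1 and Cdc45 have 1 probe set each. The part of RNA quality or of the array itself in these values was not tested. With that array left out, not 1 of the 39 members was called in the 15 comparisons.

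A second list of 58 other replication and S phase genes, 48 measured and 47 kept, held 1 called gene. Samhd1, which breaks down the deoxynucleotides that ribonucleotide reductase makes, read 236 and 150.1 in unstimulated cells, 395 and 154 with IL-9, 174 and 102 with CCL1, 266 and 237 with Dex, 441 and 389 with Dex+IL-9, and 149.7 and 147 with Dex+CCL1. Both Dex+IL-9 arrays and the IL-9 array numbered 1 were the highest, and the CCL1 array numbered 2 was the lowest. Samhd1 was higher with Dex in the arrays numbered 2, by 0.92 ± 0.17 (limma adjusted p 0.0292), and lower in number 2 than number 1 without Dex, by -0.999 ± 0.17 (adjusted p 0.0145). It differed by 0.039 with Dex in number 1, and the test of the difference between numbers gave 0.88 ± 0.22 (adjusted p 0.216). The glucocorticoid targets above differed in the same 2 comparisons. The Dex call in number 2 was lost without any 1 of the Dex array numbered 1, either Dex+IL-9 array, either Dex+CCL1 array or either IL-9 array, with limma's adjusted p at 0.0607 to 0.389, and the difference without the IL-9 array numbered 2 was 0.59. The call between numbers without Dex was lost without the IL-9 array numbered 1 (limma adjusted p 0.123) or numbered 2 (-0.67, adjusted p 0.256). Between IL-9 and CCL1 the difference was 0.93 ± 0.26, with limma's adjusted p at 0.398.

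No other gene of the second list was called in the 15 comparisons, and the 3 with the smallest p in each comparison were as follows. For IL-9 without Dex these were Dctpp1, a nucleotide pyrophosphatase (0.39 ± 0.14), Ctps, CTP synthase (0.30) and Rb1 (-0.44). With Dex they were Top1, topoisomerase I (0.56 ± 0.20), Hells, a chromatin remodeller (0.95 ± 0.40) and Timeless, a fork protection protein (-0.39). Averaged, they were Dctpp1 (0.27 ± 0.10), Ctps (0.30 ± 0.12) and Tipin, the partner of Timeless (0.28 ± 0.11). Limma's lowest adjusted p in these 3 was 0.987, 0.838 and 0.499. For CCL1 without Dex they were Ccne2 (-0.63), E2f1 (-0.46) and Rbl2 (0.33), with Dex Top1 (0.71 ± 0.20), Rbl2 (-0.46) and Pold4 (-0.43), and averaged Pold4 (-0.33), E2f1 (-0.45) and Top1 (0.34). Top1 read 336 and 215 with Dex, where the second array was the lowest of 12, against 376 and 432 with Dex+IL-9 and 463 and 439 with Dex+CCL1. Hells read 379 and 109 with Dex, and its difference rests on that second array as well. For IL-9 against CCL1 Ccna2, cyclin A2 (0.19), and E2f3 (-0.26) came with Samhd1. For the IL-9 by Dex interaction they were Dbf4 (0.45), Top1 (0.50) and Orc5 (0.37), and for that of CCL1 Rbl2 (-0.79), Top1 (0.75) and E2f4 (0.86). For Dex averaged they were Pole3 (0.30 ± 0.12), E2f8 (-0.26) and Topbp1 (-0.19), and in number 1 E2f8 (-0.33), Pole3 (0.23) and Asf1a (-0.16). For the difference of Dex between numbers Gins4 (0.53 ± 0.17) and Topbp1 (-0.54) came with Samhd1. Between numbers with Dex they were Ccne2 (-0.73 ± 0.24), Hells (-0.79) and Cad (0.29). In the arrays numbered 2, 18 of the 47 differences with Dex were positive and 29 negative (median -0.11 against -0.012 over all probe sets), with 11 at an unadjusted p under 0.05 where 10.5% of all probe sets were. The list's mean log2 signal, centred on each gene's mean, was lowest of the 12 arrays on the Dex array numbered 2 (-0.14). It was 0.017 on the Dex+IL-9 and -0.062 on the Dex+CCL1 array numbered 2. The counts without the Dex array numbered 2 are not given.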

How the data were processed

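Signals of 12 arrays were deposited as linear intensity values, made with MAS5 per the submitters' processing notes. No source used here gives a build or further settings. Both deposited tables were joined on probe set, 64 control probe sets were removed, and 22626 were left. Values were tested as log2(intensity + 16) of the deposited signals, so that differences of dim genes are understated. The 13575 probe sets with a mean over the 11 fitted arrays above the 40th percentile (signal 6.32) were kept. R 4.3.3 and limma 3.58.1 (lmFit, eBayes with trend) were fitted over the 11 arrays of the larger table, with p-values adjusted by Benjamini-Hochberg across the kept probe sets and a threshold of 0.05. Cytokine comparisons and pooled Dex used 1 mean per group (5 residual degrees of freedom, prior 6.47). Dex by number and the number comparisons used cytokine terms plus a mean for each Dex label and number (5, prior 6.96). The deposited values carry no read depth, and precision is limited by how few arrays there are.

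The members and lists were chosen with earlier results of these data known. In each comparison the text names called members, or otherwise the 4 most positive and 4 most negative. Values on every array are given for up to 3 members of a role, those with the strongest signal and the most variable, and further members were chosen after their values were seen. Of a second list it names called genes or the 3 with the smallest p, and of the 8 glucocorticoid targets those kept. Values of other probe sets are given for some named members only. Same-numbered arrays of 2 groups deviated together (correlation over 0.1) in 5 of 10 pairs of groups, with -0.0051 to 0.307 over all 10, and in each of the 5 pairs with CCL1, which span both tables and were not counted (0.185 to 0.350). Within the larger table, the pairs with the same Dex label were all over 0.1. These were 0.237 (unstimulated and IL-9), 0.181 (Dex and Dex+IL-9), 0.307 (Dex and Dex+CCL1) and 0.201 (Dex+IL-9 and Dex+CCL1). Not every pair was over 0.1, so the numbers were not taken as pairs in the main fit. A number effect shared by the groups that a cytokine comparison uses therefore stays in its spread and can widen its intervals.

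On simulated data with 200 of 13575 probe sets changed by 1 log2 unit, the IL-9 average recovered 82% and Dex within number 2 56%. The simulated arrays varied independently and held no number effect, so recovery in the deposited arrays may differ. No other comparison was simulated. Alternatives changed the added signal, filter, scaling, variance trend, probe set choice, replicate block and omitted array. RefSeq promoter windows came from a table of GRCm38.p6.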

Additional observations from a re-analysis of the deposited data

How the results depend on the processing

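In the 15 comparisons no member was called in any of the 150 values from 12 settings other than an omitted array (signal added, filter, scaling, trend, probe sets, the CCL1 array numbered 2 added, replicate block, and arrays numbered 2 alone, the last chosen after seeing the data). With the replicate number as a block, 0 members were called in each cytokine comparison, each interaction and pooled Dex, as without it. The comparisons by array number were not fitted with that block. Of 160 values with 1 of 11 arrays left out, 153 also gave 0. Left-out arrays gave 0 to 1 members called for IL-9 with Dex, IL-9 averaged, CCL1 averaged, both interactions, and number 2 minus number 1 with Dex, and 0 to 2 for CCL1 with Dex. All but 1 of these calls came without the Dex array numbered 1, which leaves the Dex array numbered 2 alone in its group and assumes that it varies like the others: Pola1 then stood at 2.14 for IL-9 with Dex (limma adjusted p 2.64e-04) and 1.97 for CCL1 with Dex (0.00119), and Rfc1 at 0.77 for the latter. The remaining call was Orc2 between numbers with Dex, at -0.61 without the Dex+IL-9 array numbered 2. Of 2600 values of named members, 2570 kept their sign, and the 30 others were of uncalled differences.

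In the second list, Samhd1 with Dex in the arrays numbered 2 was 1 call, and 0 with no filter, without the trend or with the arrays numbered 2 alone. Leaving out an array gave 0 to 5 calls for IL-9 with Dex, 0 to 3 for IL-9 averaged and for the IL-9 by Dex interaction, 0 to 6 for CCL1 with Dex, 0 to 2 for the CCL1 by Dex interaction and for numbers with Dex, and 0 to 1 for Dex in number 2, numbers without Dex and IL-9 against CCL1. The causes were not tested. With 2 arrays a group and 1 for CCL1 without Dex, changes of 1 log2 unit or less could be missed. In the simulation, Dex within number 2 recovered 56% of changes of 1 log2 unit.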

Other observations

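A list of 12 mitosis genes (11 measured, among them Cdk1, Plk1 and Mki67) was read beside the replication genes. Its mean log2 signal, centred on each gene's mean, was lowest on the CCL1 array numbered 2 (-0.235), the Dex array numbered 2 (-0.220) and the Dex+CCL1 array numbered 2 (-0.171). The corresponding mean of the replication genes on those 3 arrays was -0.061, -0.021 and -0.059. The mitosis genes did not move together on the Dex array numbered 2. Mki67 (183), Bub1 (154) and Ttk (28.3) had their lowest value of all arrays there. Plk1 (272), Aurkb (266) and Bub1b (515) had their highest there.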
